A study of Mus musculus with 4 samples.

Results

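The Olfm1, Mn1 and Sox8 loci are intervals of the mouse genome around anchors with many H3K27ac HiChIP interactions in cortical VIP interneurons. The intervals, in build mm9, were chromosome 2 from 28030000 to 28100000 (Olfm1), chromosome 5 from 111830000 to 111890000 (Mn1) and chromosome 17 from 25685000 to 25725000 (Sox8). Members were all listed interactions with an anchor overlapping one of these intervals by at least 1 bp, which gave 87 of the 15011 listed interactions, 73 of 6733 in VIP and 14 of 8278 in SST. The loci were chosen because an anchor in each took part in 23 VIP interactions and fewer SST interactions. The numbers of interactions per list are therefore a description, and nothing is supported by them.

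The nuclei came from adult cortex of mice on a C57BL/6 background that carried Sun1 together with Vip-cre (VIP) or Sst-cre (SST). INTACT captures nuclei by the tagged envelope protein Sun1 in cells where the Cre driver has been active, so each group is defined by its driver. HiChIP joins crosslinked, MboI-cut chromatin and keeps the contacts that carry the precipitated mark, here H3K27 acetylation, a mark of active promoters and enhancers. The labels describe 2 samples per cell type, and 1 interaction list per cell type was analysed, so no value below has a replicate spread or a test. An interaction in these lists is a pair of anchors without a count or score, and read depth is unknown.

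VIP interneurons mainly inhibit other interneurons, SST interneurons among them, and SST interneurons inhibit the distal dendrites of pyramidal cells. Olfm1 encodes olfactomedin 1, also called noelin or pancortin, a glycoprotein secreted by neurons that associates with AMPA-type glutamate receptors. Mn1 encodes a transcriptional co-regulator that mice need for development of the palate and skull bones. Sox8 encodes a transcription factor of the SoxE group, whose members Sox8, Sox9 and Sox10 act in glial and neural crest development. Enhancers can act on promoters over long distances, and an anchor with many partners is called a hub here when it has 10 or more interactions.

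The names belong to the intervals as given, and no mm9 annotation was used to check them. RefSeq, in build GRCm38.p6, places the 3 genes on the same chromosomes 2, 5 and 17. In its order of protein-coding genes, Olfm1 lies between Fcnb, Col5a1 and Rxra on the lower-coordinate side and Ppp1r26 on the other. Mn1 lies between Pitpnb, Ttc28 and Chek2 on the lower side and Cryba4 and Crybb1 on the higher side. Sox8 has Sstr5, a somatostatin receptor gene, and Cacna1h, a T-type calcium channel gene, on its lower side and Lmf1 and Gng13 on its higher side. Anchors were not assigned to any of these genes.

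The RefSeq promoter table held sequences for 2 of the 3 genes, with 250 bases before and 50 bases after each start site. They are shown because H3K27ac marks active promoters and because MboI, which cut the chromatin, recognises GATC. Capitals mark GATC and the GC box core GGGCGG, on either strand, so that CCGCCC is the GC box core on the other strand. The first Olfm1 promoter is chr2:28192843-28193142 on the plus strand, the second chr2:28205439-28205738 on the plus strand, and that of Sox8 chr17:25570637-25570936 on the minus strand. These positions are GRCm38.p6 and cannot be set against the mm9 anchors.
Olfm1 promoter 1: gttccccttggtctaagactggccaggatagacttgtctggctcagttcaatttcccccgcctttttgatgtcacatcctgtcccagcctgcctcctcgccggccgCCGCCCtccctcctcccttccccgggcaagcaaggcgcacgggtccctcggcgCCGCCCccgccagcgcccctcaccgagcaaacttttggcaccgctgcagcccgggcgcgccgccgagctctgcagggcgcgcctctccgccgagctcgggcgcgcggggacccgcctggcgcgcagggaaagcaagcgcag
Olfm1 promoter 2: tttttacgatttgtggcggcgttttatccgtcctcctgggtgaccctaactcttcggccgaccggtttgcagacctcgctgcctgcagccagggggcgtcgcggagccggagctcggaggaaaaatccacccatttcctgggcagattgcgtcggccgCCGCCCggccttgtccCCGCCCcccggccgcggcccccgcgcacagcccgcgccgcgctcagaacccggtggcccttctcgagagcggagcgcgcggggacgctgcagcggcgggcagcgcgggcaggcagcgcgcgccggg
Sox8 promoter: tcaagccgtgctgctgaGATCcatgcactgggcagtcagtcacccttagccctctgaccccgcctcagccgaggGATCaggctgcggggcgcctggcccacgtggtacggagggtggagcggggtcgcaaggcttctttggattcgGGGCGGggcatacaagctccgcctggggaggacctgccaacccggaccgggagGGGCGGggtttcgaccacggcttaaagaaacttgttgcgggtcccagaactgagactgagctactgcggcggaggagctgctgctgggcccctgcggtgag
The Olfm1 promoters held 32 and 43 CpG dinucleotides in 300 bases and the Sox8 promoter held 21, against a median of 7 over 32851 promoters of the table. Their GC contents were 70.7%, 72.3% and 66.3%, against a median of 52.7%. The GC box core, found 2 times in each of the 3 sequences, was present in 35.7% of the promoters compared. GATC was found 2 times in the Sox8 promoter and in neither Olfm1 sequence, and it was present in 48.0% of the promoters compared. A match describes letters and is no evidence of binding.

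At the Olfm1 interval the VIP list held 27 interactions and the SST list held 1. Per 1000 interactions of each list these were 4.01 in VIP and 0.121 in SST, a ratio of 33.2 with a counting interval of 5.47 to 1359. At Mn1 the lists held 23 VIP and 10 SST interactions, a ratio of 2.83 (1.29 to 6.66) per 1000. At Sox8 they held 23 VIP and 3 SST interactions, a ratio of 9.43 (2.85 to 49.0) per 1000. Intervals are exact at the 95% level, cover counting error only, and do not allow for the choice of the loci or for interactions that share an anchor. Among the 207 VIP hub anchors, 71.0% had a VIP over SST ratio of at least 2 per 1000, and since hubs were picked for a high VIP count nothing is read from that share. The Mn1 anchor was a hub in both lists, as its 10 SST interactions also reach the limit of 10.

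**Figure D1:**
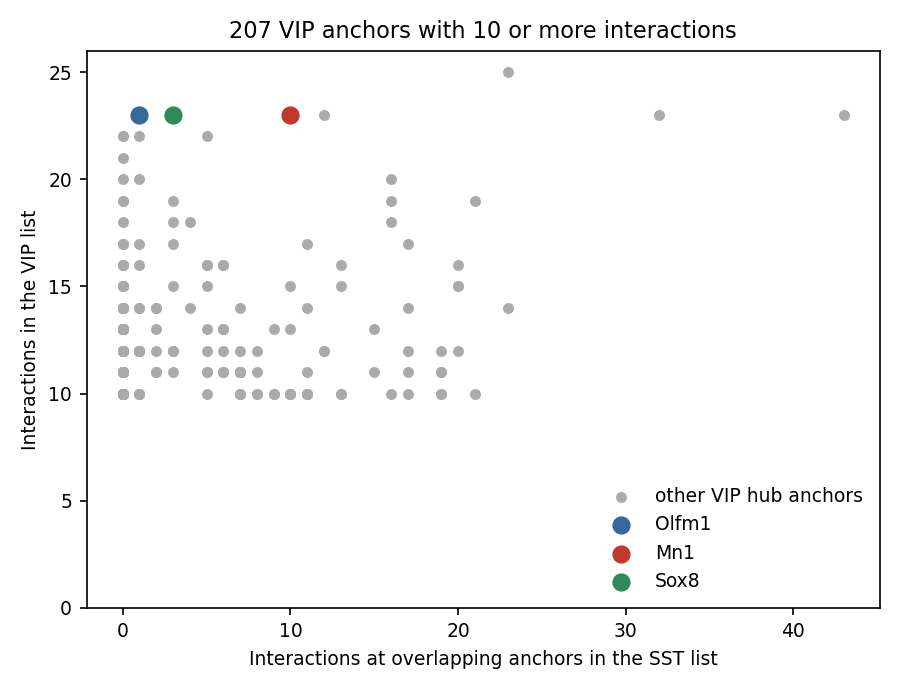
Number of listed interactions of each of the 207 VIP anchors with 10 or more interactions (vertical axis) against the number at overlapping SST anchors (horizontal axis). The 3 loci all stand at 23 VIP interactions, with 1 (Olfm1), 10 (Mn1) and 3 (Sox8) SST interactions.

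The VIP hub anchor at Olfm1 spanned 28041636 to 28090320 on chromosome 2 and was 48.7 kb wide. It contained a single SST anchor, 28054054 to 28069472, which covered 31.7% of it. The VIP hub anchor at Mn1 spanned 111842823 to 111881810 on chromosome 5 (39.0 kb). The SST anchor there began at the same base and ended at 111865457, covering 58.1%. The VIP hub anchor at Sox8 spanned 25690275 to 25718431 on chromosome 17 (28.2 kb), and 2 SST anchors, 25689332 to 25710025 and 25712913 to 25718431, covered 70.1% and 19.6% of it. The SST list joined these 2 anchors to each other, a link that cannot be listed in VIP because 1 VIP anchor overlaps both.

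Anchors differed in width, so interactions were also counted per 10 kb of anchor. The VIP hub anchor of Sox8 had 8.17 interactions per 10 kb of its width, that of Mn1 5.90 and that of Olfm1 4.72, against a median of 3.85 over the VIP hubs (quartiles 2.95 and 4.79). At least as many per 10 kb were found for 5 of the 207 VIP hubs in the case of Sox8, 21 for Mn1 and 57 for Olfm1, each count including the locus itself. As the loci were chosen for their VIP count, which only 7 hubs reached or exceeded, nothing is read from these ranks. In SST the anchors of the intervals had 1.14 interactions per 10 kb at Sox8, 4.42 at Mn1 and 0.649 at Olfm1.

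The Olfm1 interval reached 2 further VIP anchors. The anchor from 28020338 to 28035754 had 5 interactions, and that from 28097327 to 28104707 had only its link to the hub. Just outside the intervals, the VIP anchor from 111817737 to 111829934 ended 66 bp below the Mn1 interval and had 2 interactions, 1 of them to the hub. The VIP anchor from 25651160 to 25669983 ended 15.0 kb below the Sox8 interval and had 11 interactions, 1 of them to the hub.

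**Figure D2:**
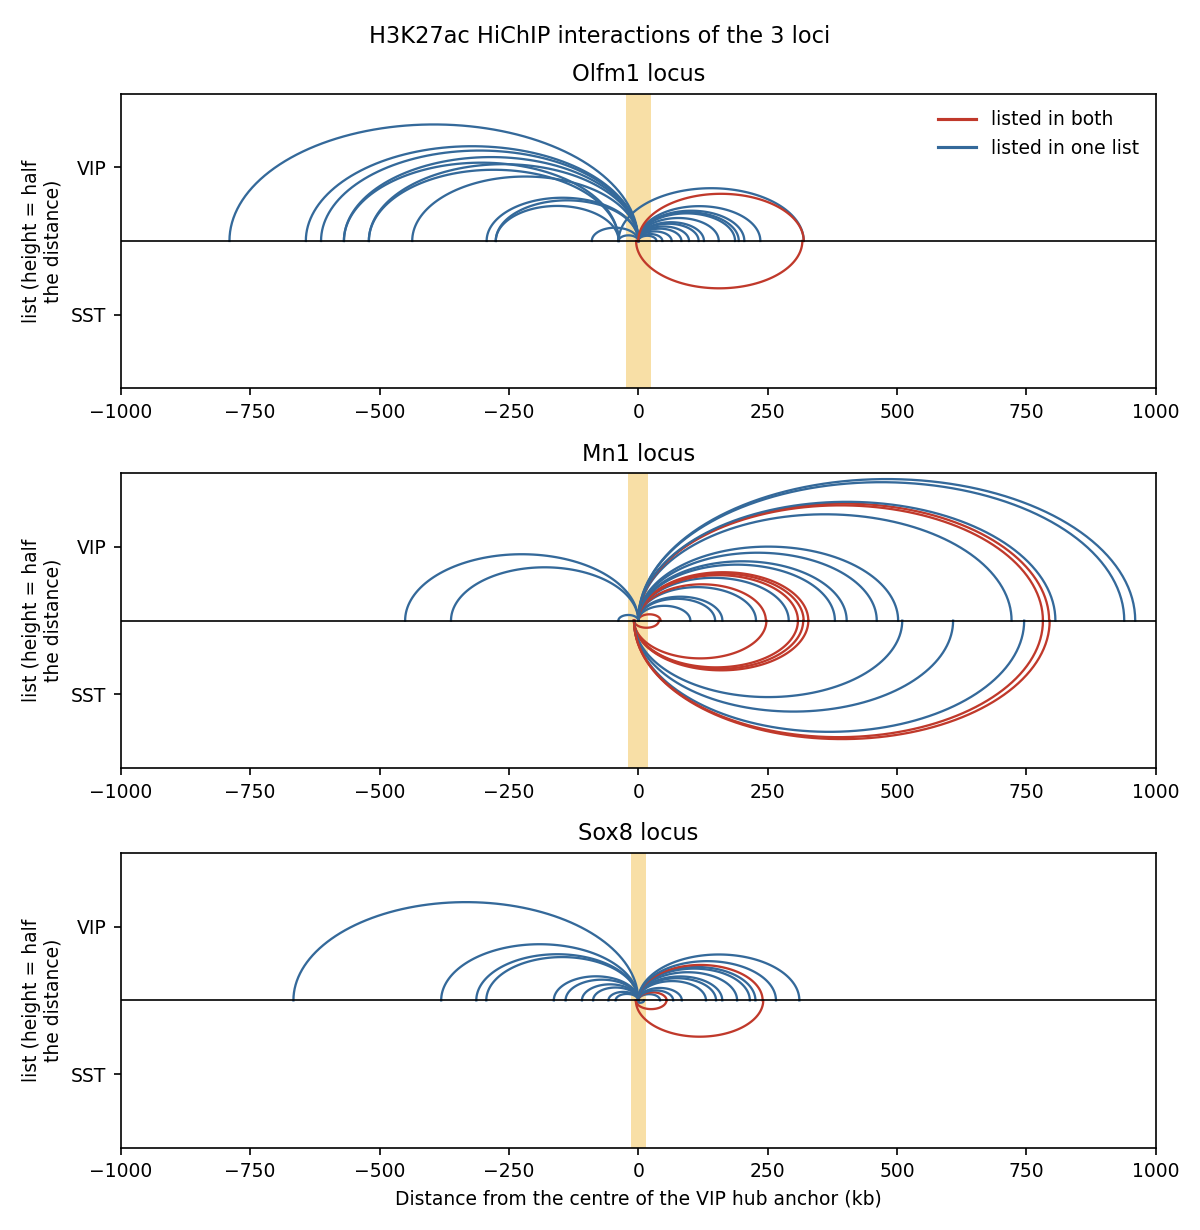
Each arc is 1 listed interaction, VIP above the line and SST below it, by distance in kb from the centre of the VIP hub anchor (yellow band), with a height that grows with the distance. Red arcs are listed in both cell types and are drawn in each list: 1 per list at Olfm1, 7 per list at Mn1 and 2 per list at Sox8, all on the higher-coordinate side.

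At Olfm1, 12 of the 25 VIP interactions leaving the interval went to lower coordinates, 48.0% (27.8 to 68.7%, Clopper-Pearson), and the single SST interaction went to higher coordinates. At Mn1, 3 of 23 VIP interactions went to lower coordinates, 13.0% (2.78 to 33.6%), and 0 of 10 SST interactions did so, with an interval of 0 to 30.8%. At Sox8, 10 of 23 VIP interactions went to lower coordinates, 43.5% (23.2 to 65.5%), and 0 of 2 SST interactions leaving the interval did. The VIP intervals of the 3 loci overlap. Among VIP interactions of up to 200 kb the lower side held 1 of 10 at Olfm1, 1 of 5 at Mn1 and 6 of 14 at Sox8, so the order of Olfm1 and Mn1 turned. The VIP hub at Mn1 sent 87.0% of its interactions to its larger side, and 43 of the 207 VIP hubs, this one included, sent at least as large a share. Among VIP hubs, 33.8% had at least 80% of their interactions on one side. SST listed no lower-side link at any of the 3 loci, although the 10 SST interactions at Mn1 give the only count of some size.

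The median distance between anchor midpoints was 362 kb (order-statistic interval 247 to 502 kb) for the VIP interactions of Mn1, 236 kb (117 to 437 kb) for Olfm1 and 162 kb (87.3 to 240.3 kb) for Sox8. Over the whole VIP list the median was 167 kb. The medians of the VIP hub anchors centred on 271 kb, with quartiles of 166 and 359 kb. A median at least as long was found for 50 of the 207 hubs in the case of Mn1 and 159 for Sox8. For the hub anchor of Olfm1 alone, with a median of 194 kb, it was found for 142. The intervals of Olfm1 and Sox8 overlapped each other, and that of Olfm1 overlapped that of Mn1, while those of Mn1 and Sox8 did not overlap. With anchors within 5 kb merged, the intervals of Mn1 (163 to 502 kb) and Sox8 (87.3 to 313 kb) overlapped too. When only VIP links up to 200 kb were kept, the median was 93.9 kb at Olfm1, 101 kb at Mn1 and 98.1 kb at Sox8. In SST the 10 Mn1 interactions had a median of 428 kb (256 to 790.1 kb), which overlaps the VIP interval. Of the 23 VIP interactions at Mn1, 10 exceeded 400 kb and 6 exceeded 600 kb, whereas 1 of 23 at Sox8 exceeded 400 kb.

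The partners of Olfm1 differed between its flanks, and in width and number of links those of Sox8 and Mn1 differed in the same direction. On the lower side there were 9 VIP partners at 89.8 to 790.0 kb from the hub centre, with a median of 521 kb. Their median width was 14.7 kb, and they had a median of 6 VIP interactions of their own. On the higher side there were 12 VIP partners at 46.6 to 319.7 kb, with a median of 141 kb, a median width of 8.17 kb and a median of 1.5 interactions. The lower group thus consisted mostly of distant anchors that also had other links, as 7 of the 9 had 5 or more interactions against 2 of the 12 on the higher side. The anchors with the most interactions were 27482659 to 27511679 and 27529390 to 27561353, with 12 each. At Sox8 the lower VIP partners had a median width of 14.6 kb and 6 interactions, against 9.59 kb and 3 on the higher side. There 7 of 10 lower and 5 of 13 higher partners had 5 or more interactions. At Mn1 these medians were 12.3 kb and 3 for the 3 lower partners, against 7.16 kb and 1. Median distances below and above the hub were 152 and 162 kb at Sox8 and 362 and 354 kb at Mn1.

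The higher-side row of Olfm1 partners ended in a wide anchor that both cell types listed. Of the 12 partners, 11 lay within 250 kb of the hub centre, the nearest at 28109152 to 28115930, and none of those 11 overlapped an SST anchor. The remaining one, 28365819 to 28405545, was 39.7 kb wide and had 9 VIP interactions. The SST anchor at 28366902 to 28399194, with 5 interactions, overlapped it, and its link to the hub was the single shared interaction of the locus. The farthest lower partner, 27259391 to 27292530, overlapped an SST anchor or anchors with 4 interactions, none of them to the Olfm1 interval.

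**Figure D3:**
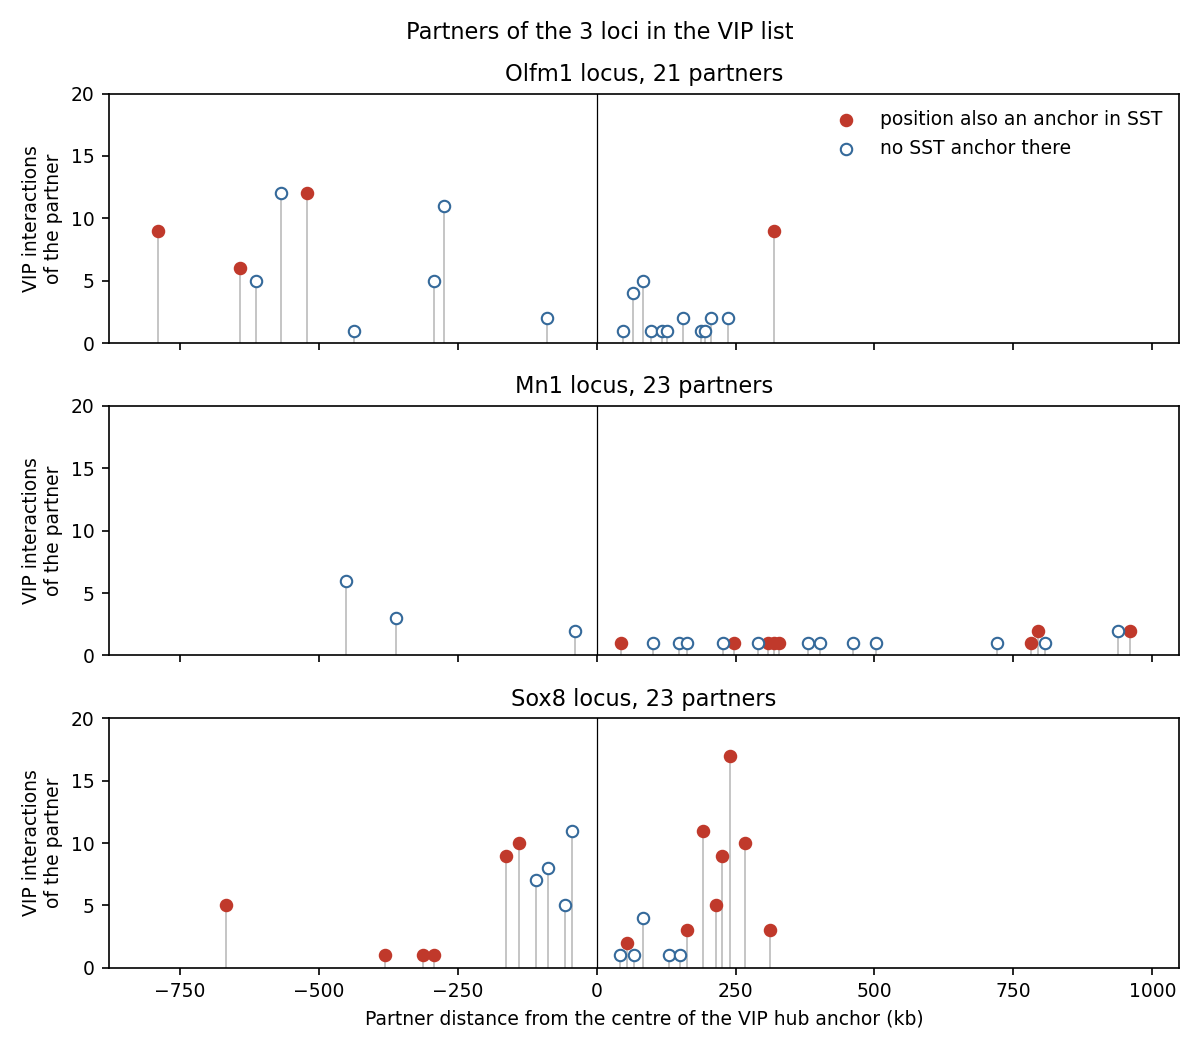
Each point is a VIP partner anchor outside the interval, placed by its distance in kb from the hub centre (negative values are lower coordinates) and by its own number of VIP interactions. At Mn1, 17 of 23 partners have 1 interaction, while partners with 9 or more interactions lie on the lower side of Olfm1 and on both sides of Sox8, with 1 on the higher side of Olfm1.

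At Mn1 most partners had no other listed link. Of the 23 VIP partners, 17 took part in the link to Mn1 alone, and 7 of the 207 VIP hubs had at least this share of such partners (73.9%, against a median of 10% over VIP hubs). All 10 SST partners of Mn1 likewise had 1 interaction. The 20 VIP partners on the higher side lay 43.1 to 960.3 kb away and were narrow, with a median width of 7.16 kb. The farthest, 112816556 to 112828737, overlapped SST anchors with 4 interactions, none of them to Mn1. The 3 lower partners lay at 38.5, 362 and 451 kb and had 2, 3 and 6 VIP interactions, and none overlapped an SST anchor. The farthest of them, 111405594 to 111417936, was the partner with the most interactions.

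The 7 shared interactions of Mn1 led to VIP partners at 43.1, 247, 309, 319.6, 329, 782 and 794 kb above the hub centre. The partners from 112167880 to 112173821 and from 112188476 to 112193388 had identical coordinates in both lists. These 7 made up 30.4% (13.2 to 52.9%) of the VIP interactions and 70% (34.8 to 93.3%) of the SST interactions of the locus. Over the whole lists 25.8% of VIP and 21.4% of SST interactions were shared, so the VIP share of Mn1 was near the background and the SST share was above it, its interval excluding 21.4%. At a locus picked for many VIP links, an SST link has more VIP links to match. The 3 SST interactions without a VIP counterpart went to partners at 518, 617 and 754 kb from the SST anchor, none of which overlapped a VIP anchor. The VIP list added links between and beyond the shared ones, up to 960.3 kb, against 803 kb for the farthest SST link.

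At Olfm1, 1 of 27 VIP interactions was shared, 3.70% (0.0937 to 19.0%), and at Sox8 2 of 23 were, 8.70% (1.07 to 28.0%). The interval of Olfm1 lay below the whole-list share of 25.8% and that of Sox8 included it. The share of Sox8 was 26.1% when anchors within 10 kb counted as matching, and 21.4% against 21.1% at Mn1 when anchors within 5 kb were merged, so no order between Sox8 and Mn1 is read from it. This share is tied to the choice of loci with fewer SST than VIP interactions, since 1 or 3 SST interactions leave few links to match. Still, 1 SST link can match more than 1 VIP link, as at Sox8 with anchors within 10 kb, where 6 VIP and 2 SST interactions matched. From the SST side, 1 of 1 interactions at Olfm1 and 2 of 3 at Sox8 were shared. Over the VIP hubs the median shared percentage was 8.33%, with quartiles of 0 and 43.8%.

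By their medians over both sides, Sox8 partners lay closer to the hub and had more links of their own than those of Olfm1 and Mn1. The distance intervals of Olfm1 and Sox8 overlapped. On the higher side alone the median distance was 141 kb at Olfm1 and 162 kb at Sox8, and on the lower side both had a median of 6 interactions. Its 10 lower partners lay 43.8 to 666 kb from the hub centre and 6 of them within 250 kb, and its 13 higher partners lay 42.1 to 311 kb away, 11 within 250 kb. The nearest were 25651160 to 25669983 below and 25743630 to 25749277 above. The partners had a median of 5 VIP interactions, against 2 at Olfm1 and 1 at Mn1. Still, 30.4% of the Sox8 partners had only the link to Sox8, against a median of 10% over VIP hubs. The anchor from 25936087 to 25953237 had the most, 17 VIP interactions, and the SST anchor overlapping it, 25936678 to 25955064, also had 17. Its link to Sox8 was one of the shared links, the other leading to 25753299 to 25765026 in VIP. The farthest partners were 25030096 to 25045796 below and 26009346 to 26022006 above, both of which overlapped SST anchors that had no listed link to Sox8.

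The VIP partners of the loci differed in whether SST listed an anchor at the same place. At Sox8, 14 of 23 partners overlapped an SST anchor, but only 2 of the 14 were linked to the locus in SST. With anchors within 10 kb counted as matching, 6 of the 23 Sox8 interactions were shared, so the count of linked partners depends on where anchors end. At Mn1, 8 of 23 partners overlapped an SST anchor, and 7 of these were linked to the locus in SST. At Olfm1, 4 of 21 partners did, and 1 was linked. The share of partners with no SST anchor was 39.1% (19.7 to 61.5%) at Sox8, 65.2% (42.7 to 83.6%) at Mn1 and 81.0% (58.1 to 94.6%) at Olfm1, and these intervals overlap. Over the VIP hubs the median of this share was 55%, with quartiles of 34.3 and 80%.

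**Figure D4:**
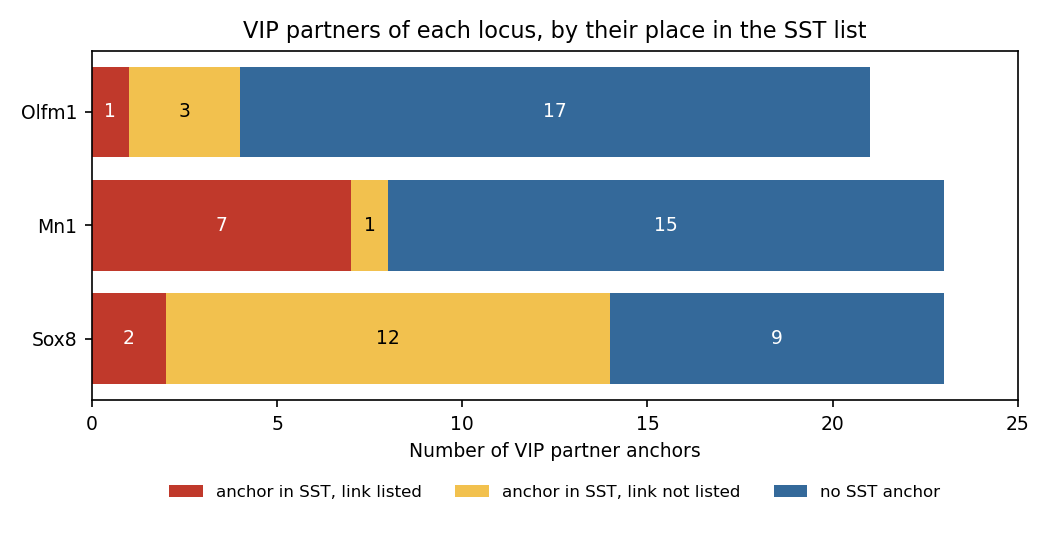
Number of VIP partner anchors of each locus, split by whether the SST list has an anchor there and whether that anchor is linked to the locus in SST. By overlap of at least 1 bp, partners listed but not linked in SST number 12 of 23 at Sox8, 1 of 23 at Mn1 and 3 of 21 at Olfm1.

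The SST anchors at the 12 Sox8 partners that lacked the link took part in 30 SST interactions. Of these, 20 lay wholly above the Sox8 interval, 5 wholly below it and 5 spanned it, and 18 of the 30 were also listed in VIP. By overlap of at least 1 bp, these partners thus had listed links in SST, but none to the Sox8 interval. At Olfm1 the corresponding 3 partners took part in 6 SST interactions, of which 5 lay below the interval and 1 spanned it.

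Links that do not touch the loci were not used to choose them. Within 1 Mb of the interval on either side, and with the interactions of the locus left out, VIP listed 37 and SST 11 interactions around Olfm1, a ratio of 4.14 (2.07 to 8.99) per 1000. Around Mn1 there were 23 in VIP and 2 in SST, a ratio of 14.1 (3.49 to 124). Inside that window lay a VIP hub anchor from 111640782 to 111679946, with 11 VIP and 0 SST interactions. The interval of the ratio does not allow for interactions that share an anchor. The Mn1 window ended just below an SST anchor from 112927106 to 112997126, with 23 SST and 0 VIP interactions. Links to that anchor were thus left out of the count. Around Sox8 there were 55 in VIP and 42 in SST, a ratio of 1.61 (1.06 to 2.47). The scaled VIP count was thus the higher one in all 3 neighbourhoods, least so around Sox8. Over the VIP hubs, with the neighbourhood taken from the hub anchor, the median ratio was 3.16. A ratio at least as high was found for 43 of the 207 hubs in the case of Mn1, 70 for Olfm1 and 141 for Sox8. Links touching a VIP partner but not the locus gave ratios of 5.33 (2.54 to 12.5) at Olfm1 and 2.46 (0.659 to 11.2) at Mn1. At Sox8 this ratio was 1.93 (1.24 to 3.04). These neighbouring interactions share libraries, and in part anchors, with those of the loci, so they are no independent replicate.

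The order of the loci changed with the measure. Mn1 had the smallest VIP over SST ratio of its own and the largest ratio within 1 Mb. Among links touching a VIP partner, a measure that leans to VIP by construction, the largest ratio was that of Olfm1. None of the 23 VIP and 2 SST interactions in the neighbourhood of Mn1 was shared. Around Sox8, 20 of the 55 VIP interactions, 36.4%, and 20 of the 42 SST interactions, 47.6%, were shared. Around Olfm1, 3 of 37 VIP and 2 of 11 SST interactions were shared. Anchors within 1 Mb, those of the interval included, numbered 33 in VIP and 34 in SST around Sox8, 36 and 16 around Mn1, and 31 and 11 around Olfm1. On the lower side of Mn1 there were 15 VIP and 2 SST anchors.

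Few of the partners of Mn1 were linked to each other. In VIP, 3 of 241 pairs of Mn1 partners within 1 Mb were linked, 1.24% (0.257 to 3.59%), against 29 of 208 at Olfm1, 13.9% (9.54 to 19.4%), and 48 of 253 at Sox8, 19.0% (14.3 to 24.4%). Over the VIP hubs the median was 29.6%, with quartiles of 15.4 and 44.8%, and 4 of the 207, Mn1 included, had a share at or below that of Mn1. Most of these hubs had fewer partners than the 3 loci, as only 7 had 23 or more interactions. The other hubs among those 7 had shares of 2.49 to 18.5%, so the median over all hubs is not a like background. Pairs share anchors, so the intervals are too narrow. In SST, 0 of 45 pairs of Mn1 partners were linked (0 to 7.87%).

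**Figure D5:**
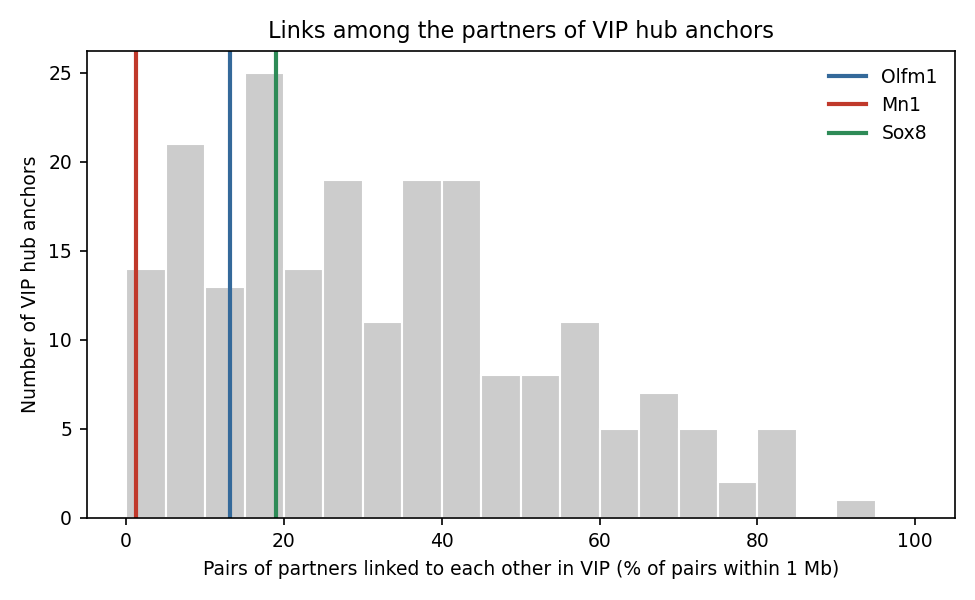
Histogram of the percentage of partner pairs within 1 Mb that are linked to each other in VIP, over the 207 VIP hub anchors. The lines mark the hub anchors of Mn1 at 1.24%, of Olfm1 at 13.1% (from the hub anchor alone) and of Sox8 at 19.0%.

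At Olfm1 the linked pairs lay mostly on the lower side and across the locus. Of the lower-side pairs 14 of 36 were linked, of the higher-side pairs 2 of 66, and of the pairs across the locus 13 of 106. At Sox8, 11 of 45 lower-side pairs, 14 of 78 higher-side pairs and 23 of 130 pairs across the locus were linked. All VIP links that spanned an interval without touching it joined a pair of its partners, namely 13 at Olfm1, 23 at Sox8 and 1 at Mn1. For a VIP hub the median share of such links was 87.5%, and it was 100% for 65 of the 171 hubs with a spanning link. The SST list had 2 links spanning the Olfm1 interval, 6 spanning that of Sox8 and 0 spanning that of Mn1. Scaled to 1000 interactions, spanning links numbered 3.42 in VIP and 0.725 in SST at Sox8, and 1.93 in VIP and 0.242 in SST at Olfm1.

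The 3 hubs were set beside the other VIP anchors with 23 or more interactions, of which there were 4. These were on chromosome 2 from 71345229 to 71387539, with 25, and on chromosome 3 from 34531738 to 34574387, chromosome 12 from 54664991 to 54761796 and chromosome 17 from 56494730 to 56552368, with 23 each. The shared percentage was 30.4% for the hub of Mn1, 8.70% for that of Sox8 and 4.35% for that of Olfm1, against 60%, 73.9%, 56.5% and 34.8% for these 4 anchors in the order given. Linked partner pairs made up 1.24% at the hub of Mn1, 13.1% at that of Olfm1 and 19.0% at that of Sox8, against 2.49%, 2.78%, 18.5% and 6.32% for the 4 anchors. Low shares of linked partners were thus also found at the hubs on chromosome 2 from 71345229 and on chromosome 3. As the 3 loci were picked for fewer SST than VIP interactions, their lower sharing carries no test.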

How the data were processed

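The members, lists and measures were chosen with earlier results of these data known. Per the labels' protocols, nuclei isolated by INTACT were crosslinked, digested with MboI, immunoprecipitated for H3K27ac and tagged with Tn5. HiC-Pro and build mm9 are named in the submitters' processing notes. Not given in the sources used here are the calling of interactions and anchors and whether replicates were pooled. The authors deposited 6 columns per interaction, the coordinates of both anchors, with no count, score or p-value. Both lists are attached to replicate 1, and lists for replicate 2 were not analysed here. The files do not say if starts count from 0 or 1.

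An interaction was shared when both anchors overlapped those of 1 interaction of the other list by at least 1 bp. Ratios are VIP over SST, scaled to 1000 interactions of each list. Exact binomial and order-statistic intervals at the 95% level were computed. They cover counting error only, and the depth per list is unknown. Regions named were the hub anchors, the nearest and farthest partners, the partner with the most interactions, the shared partners and hubs with at least as many VIP interactions. The interval edges, the row of Olfm1 partners and the grouping by side were chosen after values were seen. On simulated data the step that finds shared interactions recovered 1200 of 1200 planted ones, with 0 false calls in a list of 2000. Alternatives covered the overlap rule, the interval, the distance, merged anchors and the scaling. Gene lists that needed an mm9 annotation were not run. Scripts ran under Python 3.11.15 with pandas 2.3.3, numpy 2.4.6, matplotlib 3.10.9 and scipy 1.17.1.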

Additional observations from a re-analysis of the deposited data

How the results depend on the processing

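All 3 ratios stayed above 1 under every alternative that gave a value. The ratio of Olfm1 ranged from 23.2 to 41.8, that of Mn1 from 2.30 to 6.03 and that of Sox8 from 7.67 to 15.2. The 6.03 of Mn1, at up to 200 kb, rests on 5 VIP and 1 SST interactions, and its interval of 0.675 to 285 includes 1. Of the 82 alternative values, 70 stayed within the interval of the value reported and 12 did not. Part of the 70 could not move. Every interaction of Mn1 and Sox8 touched the hub anchor, so counting the hub anchor alone repeated their reported values. Identical anchor coordinates left 0% of VIP and 0% of SST interactions shared at all 3 loci. This was fixed in advance, as no VIP anchor in the intervals had both ends in common with an SST anchor. Interactions of up to 200 kb put 10% of the Olfm1 links on the lower side (1 of 10), where distant partners prevail, and shared 0% of its 12 VIP links. That limit gave lower-side shares of 20% at Mn1 (1 of 5) and 42.9% at Sox8, median distances of 93.9 kb at Olfm1, 101 kb at Mn1 and 98.1 kb at Sox8, which are lower by construction, and 100% sharing of the 1 SST link left at Mn1. It left no SST interaction at Olfm1, so the ratio and SST share had no value there. Merging anchors within 5 kb gave 100% sharing of the 2 SST links of Sox8, because the link between its neighbouring SST anchors disappears. At Sox8, anchors within 10 kb raised the shared VIP interactions to 6 of 23 (26.1%), and merged anchors gave 21.4%, against 21.1% at Mn1, so the reported 8.70% depends on where anchors end; the causes of other shifts were not tested. With the interval widened by 50 kb, Olfm1 had 34 VIP interactions and Sox8 37, while SST had 1 and 3. No paired analysis was possible because VIP and SST had 1 list each, which also means that leaving out a replicate could not be tried. Contacts that were not listed may have been too weak to call at an unknown depth.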
